A study of Drosophila melanogaster with 36 samples.

Results

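The regions described here are those bound by Gcm in Kc167 cells that made tagged Gcm and no tagged Hox protein, set beside those bound by Ubx in Kc167 cells that made Gcm and tagged Ubx together. The members are every region that the deposited lists name for the Gcm line (10750 regions) and for the Ubx+Gcm line (8827 regions) at the MACS2 threshold of q 1e-2, which makes 19577 of the 112270 regions listed for the 12 lines. At the stricter threshold of q 1e-10 the Gcm line has 5822 regions and the Ubx+Gcm line 4264. A Gcm region is called "with Ubx" where it overlaps a region of the Ubx+Gcm line by at least 1 bp and "without Ubx" otherwise, and a Ubx+Gcm region is called "with Gcm" or "without Gcm" in the same way.

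Kc167 is a Drosophila embryonic cell line with characteristics of hemocytes, the insect blood cells. Stable lines carried the transgenes under the metallothionein promoter, were induced with copper sulphate and sorted on GFP fluorescence, and an antibody to GFP was used for ChIP-Seq in 2 replicates, with 1 input library for each line. In the Gcm line the eGFP tag was on Gcm (eGFP-gcm) and induction was with 2.5 mM CuSO4 for 24 h. In the Ubx+Gcm line 1 transcript encoded untagged Gcm, a self-cleaving 2A peptide and eGFP-tagged Ubx (gcm-2A-eGFP-Ubx), with the same 2.5 mM CuSO4 for 24 h. The lists therefore show where Gcm was bound without Ubx and where Ubx was bound with Gcm, and Gcm binding in the presence of Ubx was not measured. Each region is the merged span of overlapping peaks present in both replicates, so no value per replicate stands behind a region, and the tests below treat regions as the units although neighbouring regions are not independent and regions are not replicates of the cells. The intervals likewise cover counting error only. The classes are set by overlap with the other line. A feature frequent in that line is thus favoured in the shared class, and a small p-value for it is not independent support.

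Gcm (Glial cells missing) is a zinc-containing DNA-binding transcription factor that directs glial fate in the embryonic nervous system and promotes the plasmatocyte fate of hemocytes. The study took it as a candidate pioneer factor, a protein that can open closed chromatin. From ATAC-Seq in stable Kc167 lines the study reported that Gcm binding went with chromatin opening, and it described Gcm as a pioneer factor. Ubx is a Hox protein of the posterior thorax and anterior abdomen, which binds short AT-rich sequences shared by many homeodomain proteins. The comparison asks which of the sites that Gcm takes by itself are also bound by Ubx when both are present, and what sets those sites apart from the ones that Ubx leaves.

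The Gcm site searched here had 4 forms, ATACGGGC, ATACGGGT, ATGCGGGC and ATGCGGGT, read on both strands. The following stretches of the reference genome (dm6, plus strand, 5′ to 3′) show the site in its setting, since among the 6 motifs its frequency differed most between the classes of Gcm regions. Each is 120 bp centred on the Gcm site nearest the centre of its region, with Gcm sites in capitals. In each class 2 come from the regions with most Gcm sites and 1 from the glial and hemocyte gene lists. For the Gcm regions with Ubx they lie in CG14785 at chrX:1456079-1456198, in an intron of Eip63E at chr3L:3556462-3556581 and in an intron of the glial gene loco at chr3R:22627551-22627670.

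CG14785, with Ubx: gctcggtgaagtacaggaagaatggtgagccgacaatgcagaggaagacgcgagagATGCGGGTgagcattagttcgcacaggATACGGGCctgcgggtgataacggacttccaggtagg

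Eip63E, with Ubx: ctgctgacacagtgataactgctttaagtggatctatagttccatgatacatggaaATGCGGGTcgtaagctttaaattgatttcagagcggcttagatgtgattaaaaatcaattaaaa

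loco, with Ubx: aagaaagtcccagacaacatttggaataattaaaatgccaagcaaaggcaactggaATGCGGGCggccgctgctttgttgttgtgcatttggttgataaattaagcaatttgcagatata

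For the Gcm regions without Ubx the stretches lie at the neighbouring genes CG11980 and Prosbeta3 at chr3R:9004670-9004789, in N (Notch) at chrX:3165034-3165153 and in an intron of Fas2 at chrX:4199723-4199842. In the stretch at CG11980 the site is on the minus strand, so its capitals read as the reverse complement of ATGCGGGC.

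CG11980 and Prosbeta3, without Ubx: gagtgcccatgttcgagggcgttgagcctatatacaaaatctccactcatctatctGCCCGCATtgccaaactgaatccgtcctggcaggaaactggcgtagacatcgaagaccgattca

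N, without Ubx: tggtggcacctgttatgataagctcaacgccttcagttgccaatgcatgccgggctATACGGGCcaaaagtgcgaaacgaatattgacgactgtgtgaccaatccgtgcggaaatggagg

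Fas2, without Ubx: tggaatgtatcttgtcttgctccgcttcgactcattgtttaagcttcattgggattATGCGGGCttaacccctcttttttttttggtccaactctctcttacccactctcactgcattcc

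A Ubx+Gcm region without Gcm is shown on the region centre, at pnt (chr3R:23311342-23311461), which is the widest region of a listed gene, among those also in the q 1e-10 list, whose central stretch lies outside UTRs and held a Hox motif. The capitals mark the Hox motif, and the stretch holds no Gcm site.

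pnt, Ubx without Gcm: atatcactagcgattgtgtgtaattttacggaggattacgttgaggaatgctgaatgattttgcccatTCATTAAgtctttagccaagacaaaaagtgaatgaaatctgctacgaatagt

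About equal numbers of Gcm regions were bound and not bound by Ubx when the proteins were expressed together. Of the 10750 Gcm regions, 5153 were with Ubx (47.9%, 95% exact binomial interval 47.0 to 48.9) and 5597 were without Ubx. From the other side, 4804 of the 8827 Ubx+Gcm regions were with Gcm (54.4%, interval 53.4 to 55.5) and 4023 were without Gcm. The share of Gcm regions with Ubx lay between 45.4% on 2L and 50.3% on X over the 5 large chromosome arms, and the share of Ubx+Gcm regions with Gcm between 50.8% on 2L and 57.3% on 3R.

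**Figure D1:**
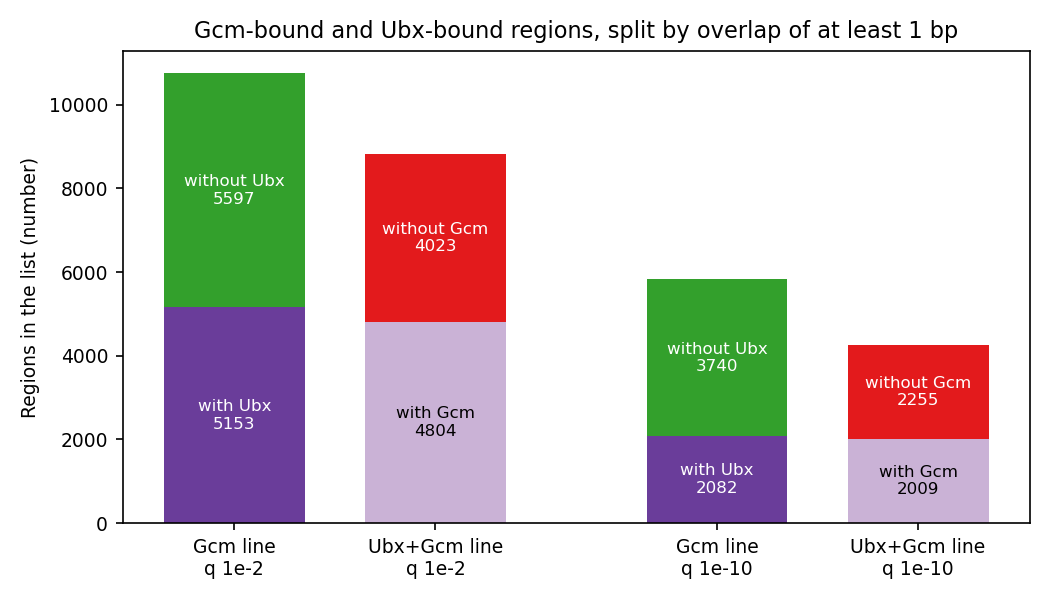
Bars give the number of regions in the deposited list of the Gcm line and of the Ubx+Gcm line at q 1e-2 and at q 1e-10, each split by an overlap of at least 1 bp with the other line. At q 1e-2 the Gcm bar splits into 5153 regions with and 5597 without Ubx, and at q 1e-10 into 2082 with and 3740 without.

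The share depended on the threshold. At q 1e-10 in both lists 2082 of 5822 Gcm regions were with Ubx (35.8%, interval 34.5 to 37.0), and 2009 of 4264 Ubx+Gcm regions were with Gcm (47.1%, interval 45.6 to 48.6). Gcm regions that also passed q 1e-10 met a Ubx+Gcm region of the q 1e-2 list more often than those that passed q 1e-2 only: 3300 of 5604 (58.9%) against 1853 of 5146 (36.0%). The same held for Ubx+Gcm regions, of which 2771 of 3884 (71.3%) that also passed q 1e-10 met a Gcm region, against 2033 of 4943 (41.1%) that passed q 1e-2 only. A stricter region was therefore more often shared, while a stricter demand on the partner lowered the share.

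Few regions were close calls. The 5267 overlapping pairs shared a median of 452 bp, with centres a median of 114 bp apart, and 49 pairs (0.930%) overlapped by under 50 bp. Just outside the rule, 31 Gcm regions without Ubx (0.554%) and 27 Ubx+Gcm regions without Gcm (0.671%) ended within 50 bp of a region of the other line. Many unshared regions still had a neighbour, since 1052 Gcm regions without Ubx (18.8%) and 1177 Ubx+Gcm regions without Gcm (29.3%) lay within 1000 bp of a region of the other line. The Gcm region lay wholly inside the Ubx+Gcm region in 2171 pairs (41.2%), and 398 Ubx+Gcm regions spanned 2 or more Gcm regions, up to 5 of them.

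Widths are tied to the rule, because a wide region meets another more easily, and are given without a test. The median width was 557 bp (quartiles 426 to 771) in Gcm regions with Ubx and 428 bp (356 to 536) in those without. It was 698 bp (473 to 1100) in Ubx+Gcm regions with Gcm and 489 bp (380 to 683) in those without. Motifs were therefore counted in the central 200 bp of each region, and the contrasts were repeated within quartiles of width.

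Of the 6 motifs the Gcm site had the largest difference between the classes of Gcm regions, and it was commoner where Ubx was absent. A Gcm site lay in the central 200 bp of 545 of 5153 Gcm regions with Ubx (10.6%, interval 9.75 to 11.4) and of 1993 of 5597 Gcm regions without Ubx (35.6%, interval 34.4 to 36.9). The difference was -25.0 points (95% Newcombe interval -26.5 to -23.5, Fisher's exact test on regions, 2-sided, adjusted p = 1.26e-214 over the 6 motifs) and had the same direction on 5 of 5 chromosome arms. Both shares were above the background of the same length, since 0.995% of all 200 bp tiles of the genome held a Gcm site, as did 1.04% of windows 1000 bp to either side of Gcm regions with Ubx and 1.38% of those beside Gcm regions without Ubx. The contrast was also present at the strict threshold and within quartiles of width. Of all Ubx+Gcm regions 4.32% held a central Gcm site, against 23.6% of all Gcm regions, so the rule itself favours a lower share with Ubx.

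**Figure D2:**
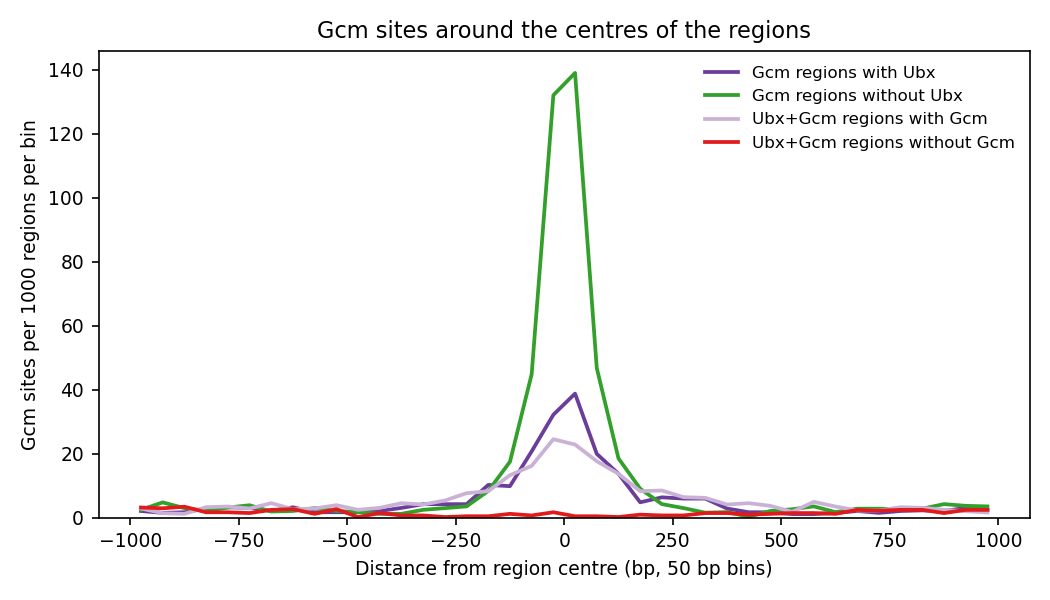
Lines give the number of Gcm sites per 1000 regions in bins of 50 bp (vertical axis) by distance from the region centre in bp (horizontal axis) for the 4 classes of regions. In the bin just right of the centre Gcm regions with Ubx held 38.8 sites per 1000 regions and Gcm regions without Ubx 139, while Ubx+Gcm regions without Gcm held 0.497.

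The plot of Gcm sites by distance shows that sites were concentrated at the centre of the Gcm regions in both classes and more tightly where Ubx was absent. Among regions with a Gcm site anywhere in their length, the site nearest the centre was a median of 73.5 bp away (quartiles 29 to 171) in 936 Gcm regions with Ubx and 34 bp away (14 to 65) in 2330 Gcm regions without Ubx. In shared pairs 887 of 1065 Gcm sites of the Gcm region (83.3%) fell inside the Ubx+Gcm region too, and 741 (69.6%) were nearer to the centre of the Gcm region than to that of the Ubx+Gcm region.

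The form of the site differed a little between the classes. ATGCGGGC was the commonest form in both, with 229 of 563 central sites (40.7%) in Gcm regions with Ubx and 1001 of 2015 (49.7%) in those without. The forms with A in the third place, ATACGGGC and ATACGGGT, made up 13.3% and 10.1% of the sites in Gcm regions with Ubx and 7.25% and 5.86% of those without. These shares were not tested.

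Counted over whole regions, 4217 of 7484 Gcm regions with no Gcm site were with Ubx (56.3%, interval 55.2 to 57.5), against 856 of 3088 with 1 site (27.7%, interval 26.1 to 29.3). The 171 regions with 2 sites were with Ubx in 45.0% of cases (interval 37.4 to 52.8), and they were wider, with a median of 848 bp against 461 bp for regions with no site. Only 7 regions held 3 sites, the most seen, and 3 of them were with Ubx.

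Other motifs went the opposite way within the Gcm regions. A match to GAGAGAG, the core of the GAGA element that GAGA factor (Trl) binds at open promoters and enhancers, was present in 10.3% of Gcm regions with Ubx (531 of 5153) and 2.73% of those without (153 of 5597). The difference was 7.57 points (interval 6.65 to 8.52, Fisher's exact test, adjusted p = 6.53e-60), and 2.43% of genome tiles held a match. GATA motifs, the sites of factors such as the hemocyte regulator Serpent, spelled AGATAA or AGATAG or TGATAA or TGATAG, were in 31.9% of Gcm regions with Ubx and 23.3% of those without, a difference of 8.66 points (interval 6.97 to 10.3, Fisher's exact test, adjusted p = 1.75e-23). Genome tiles held a GATA motif in 30.0% of cases, so that the class without Ubx lay below the genome and the class with Ubx near it. Of all Ubx+Gcm regions 7.91% held a GAGA match and 35.2% a GATA motif. Higher shares with Ubx are therefore partly built into the rule, and these 2 tests add no support.

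Hox motifs were rarer in both classes of Gcm regions than in the genome tiles. HoxB motifs, TTTATGA or TTTATGG or TTTATTA or TTTATTG, were in 19.0% of Gcm regions with Ubx and 14.8% of those without (difference 4.19 points, interval 2.77 to 5.61, Fisher's exact test, adjusted p = 8.63e-09), and in 25.3% of genome tiles. HoxA motifs, CTAATGA or CTAATTA or TTAATGA or TTAATTA, were in 11.6% of Gcm regions with Ubx and 10.3% of those without (difference 1.30 points, interval 0.116 to 2.49, Fisher's exact test, adjusted p = 0.0330), and in 16.2% of genome tiles. The HoxA difference was lost when any of the arms 2L, 2R or 3L was left out, with adjusted p between 0.0995 and 0.178, and it was 3.22 points at q 1e-10. Over whole regions, where those with Ubx are the wider ones, the differences were 10.4 points for HoxA, 17.5 for HoxB, 19.7 for GATA and 16.2 for GAGA. Gcm regions were also richer in G and C than the Ubx+Gcm regions, with a median of 47.0% in the central 200 bp of those with Ubx and 50.5% of those without.

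**Figure D3:**
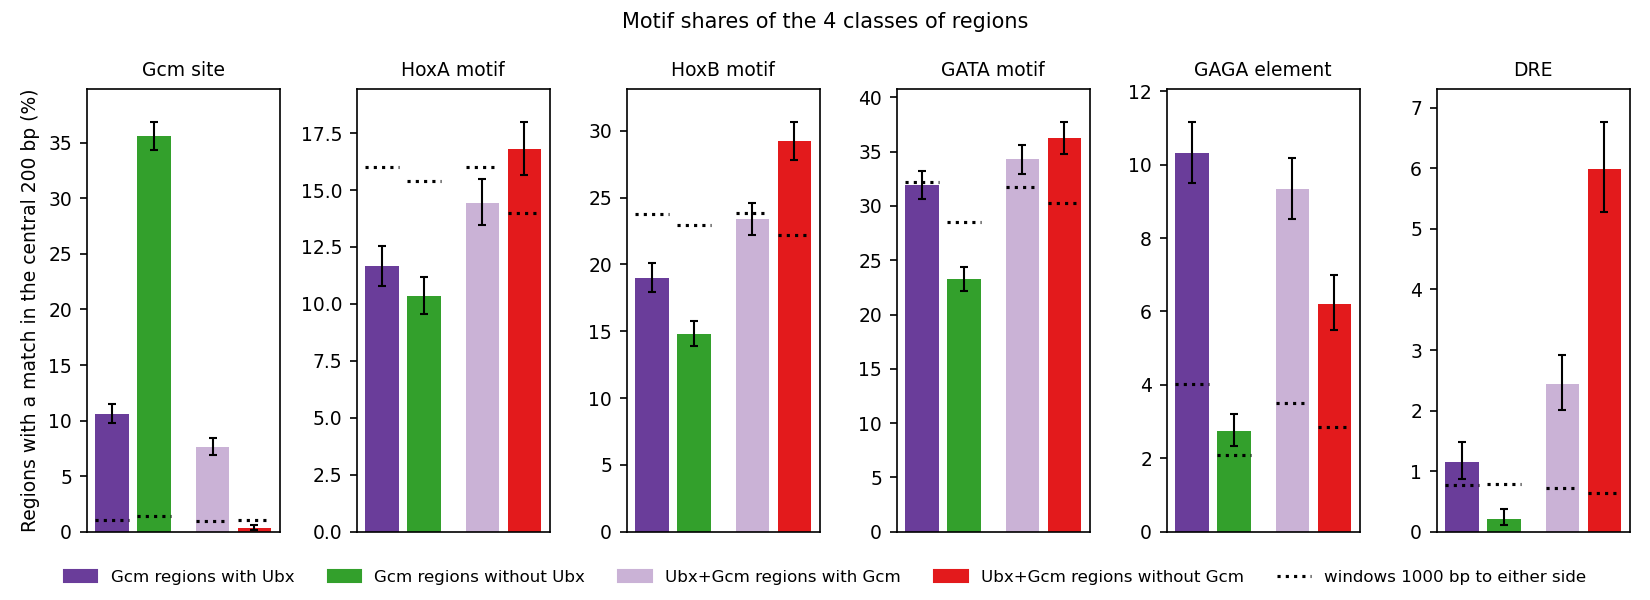
Bars give the percentage of regions with at least 1 match to each of 6 motifs in the central 200 bp, for the 4 classes of regions, with 95% exact binomial intervals, and dotted lines give the percentage of 200 bp windows 1000 bp to either side. Vertical scales differ between panels, and the Gcm site stood at 10.6% and 35.6% in Gcm regions with and without Ubx, and the DRE at 2.44% and 5.99% in Ubx+Gcm regions with and without Gcm.

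The classes also lay in different parts of genes. The region centre was within 500 bp of an annotated transcript start in 2228 of 5153 Gcm regions with Ubx (43.2%) and 852 of 5597 without (15.2%), a difference of 28.0 points (interval 26.4 to 29.7, Fisher's exact test, p = 3.59e-231, same direction on 5 of 5 arms). At q 1e-10 in both lists the difference was 14.5 points. In the Ubx+Gcm list that sets these classes, 45.4% of regions with Gcm and 60.1% of those without lay this near a start. A higher share with Ubx is therefore partly built into the rule, and the test adds no support. Coding exons held the centre of 540 Gcm regions with Ubx (10.5%, interval 9.66 to 11.3) and of 2168 without (38.7%, interval 37.5 to 40.0). 5′ UTRs held 15.5% of those with Ubx and 3.04% of those without, and introns 49.3% and 33.4%. Intergenic centres made up 19.5% with Ubx (interval 18.4 to 20.6) and 20.2% without (interval 19.2 to 21.3), with overlapping intervals. Read by location, Ubx was present at 82.5% of the Gcm regions centred in a 5′ UTR, 57.6% of those in introns, 47.0% of intergenic ones and 19.9% of those in coding exons.

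**Figure D4:**
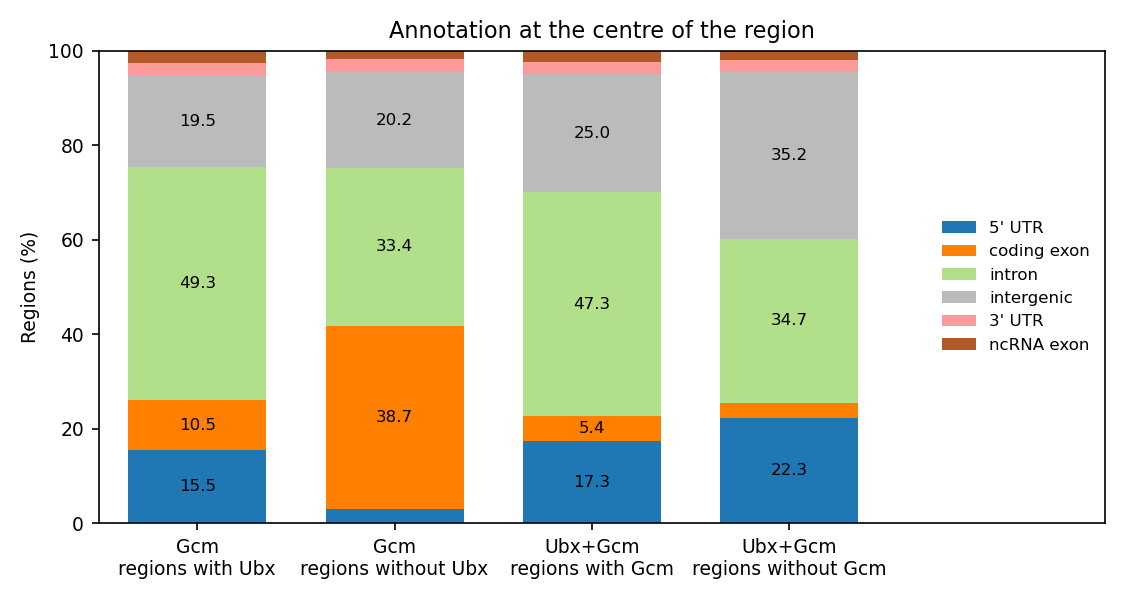
Stacked bars give the percentage of regions of each class whose centre lies in each kind of annotation, on a scale of 0 to 100%. Coding exons hold 10.5% of Gcm regions with Ubx and 38.7% of Gcm regions without Ubx, against 5.37% and 3.23% of Ubx+Gcm regions with and without Gcm.

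Gcm sites were rarer where Ubx was present in each of the locations compared, which were both distances from a start, 5′ UTRs, coding exons, introns and intergenic sequence. Within 500 bp of a transcript start a central Gcm site was in 7.68% of Gcm regions with Ubx and 25.6% of those without (difference -17.9 points, interval -21.1 to -14.9), and farther away in 12.8% and 37.4% (difference -24.6 points, interval -26.4 to -22.8). In coding exons the shares were 15.7% with Ubx and 36.8% without, in introns 9.99% and 35.1%, and in intergenic sequence 12.0% and 36.7%. The 5′ UTRs had the smallest difference of these 4 annotations, at 6.50% with Ubx and 15.9% without (-9.38 points, interval -15.8 to -4.27). GAGA matches likewise stayed commoner with Ubx near starts (11.8% against 4.81%) and away from them (9.20% against 2.36%).

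The Ubx+Gcm regions without Gcm were close to the reverse of the Gcm regions without Ubx. A central Gcm site was in 367 of 4804 Ubx+Gcm regions with Gcm (7.64%, interval 6.90 to 8.43) and in 14 of 4023 without Gcm (0.348%, interval 0.190 to 0.583), a difference of 7.29 points (interval 6.54 to 8.09, Fisher's exact test, adjusted p = 4.61e-79). The share without Gcm was below the 0.995% of genome tiles. These classes are set by overlap with Gcm regions, and 23.6% of all Gcm regions held a central Gcm site. A higher share with Gcm and a lower one without are therefore built into the rule, and the test adds no support. Central GC content had a median of 45.0% in Ubx+Gcm regions with Gcm and 40.5% in those without. HoxB motifs were in 23.4% of Ubx+Gcm regions with Gcm and 29.2% of those without (difference -5.86 points, interval -7.70 to -4.01, Fisher's exact test, adjusted p = 1.04e-09), and HoxA motifs in 14.4% and 16.8% (difference -2.36 points, interval -3.89 to -0.838, adjusted p = 0.00284). Over whole regions the difference in the Gcm site was 16.3 points, and both Hox differences turned round, to 3.12 points for HoxB and 6.07 points for HoxA, where the regions with Gcm are also the wider ones. The HoxA difference was also lost at q 1e-10 (-0.248 points, Fisher's exact test, adjusted p = 0.890) and without arm 3R (-1.70 points, adjusted p = 0.0577).

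The DRE (DNA replication-related element), TATCGATA, the element of the promoter factor DREF at housekeeping genes, was in 2.44% of Ubx+Gcm regions with Gcm and 5.99% of those without, a difference of -3.56 points (interval -4.43 to -2.72, Fisher's exact test, adjusted p = 1.15e-16), against 0.558% of genome tiles. Of the Ubx+Gcm regions with Gcm 45.4% were centred within 500 bp of a transcript start, against 60.1% of those without (difference -14.8 points, interval -16.8 to -12.7, Fisher's exact test, p = 1.07e-43). In the Gcm regions the DRE was rare, with 59 regions holding a match among those with Ubx (1.14%) and 12 among those without (0.214%), a difference of 0.931 points (Fisher's exact test, adjusted p = 1.61e-09) that shrank to 0.0302 points at q 1e-10 (adjusted p = 0.886) and was 3.18 points over whole regions. GAGA matches were in 9.33% of Ubx+Gcm regions with Gcm and 6.21% without (3.11 points, Fisher's exact test, adjusted p = 9.95e-08, and 11.6 points over whole regions), but the difference was -0.145 points at q 1e-10 (adjusted p = 0.890). GATA motifs, at 34.3% with Gcm and 36.2% without, did not pass the test (difference -1.96 points, interval -3.96 to 0.0423, Fisher's exact test, adjusted p = 0.0572).

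The Ubx line, which made eGFP-tagged Ubx with no added Gcm, divided the shared regions further. Its induction was with 1 mM CuSO4 for 18 h and so differed from that of the lines above, and the part of copper or time in what follows cannot be told apart from that of Gcm. Of the 5153 Gcm regions with Ubx, 2855 were also bound in the Ubx line (26.6% of all Gcm regions) and 2298 were not (21.4%), while only 27 of the 5597 Gcm regions without Ubx were bound in the Ubx line (0.482%). With classes and overlaps both taken from 400 bp windows on the region centres, 298 of 6357 Gcm regions without Ubx were bound in the Ubx line (4.69%). For Gcm regions with Ubx the share was then 49.5%, against 55.4% by the 1 bp overlap. Regions that Ubx occupied in the Ubx+Gcm line and not in the Ubx line had a central Gcm site in 18.0% of cases (414 of 2298, interval 16.5 to 19.6), against 4.59% (131 of 2855, interval 3.85 to 5.42) where Ubx was bound in both lines. GAGA matches ran the other way, at 5.13% (interval 4.27 to 6.12) and 14.5% (interval 13.2 to 15.8). HoxB motifs were in 19.2% and 18.8%, with overlapping intervals. Seen from the Ubx+Gcm list, a Gcm site was in 327 of 2154 regions with Gcm that were not bound in the Ubx line (15.2%), in 40 of 2650 that were (1.51%), in 13 of 2122 regions without Gcm that were not bound in the Ubx line (0.613%) and in 1 of 1901 that were (0.0526%).

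Binding in the other 10 lines is described without a test, because wide regions meet more regions of any list. Gcm regions with Ubx were bound in the Ubx+Hth+Gcm line, which had the same 2.5 mM CuSO4 for 24 h, in 80.8% of cases, in the Dfd+Gcm line (3.2 mM for 24 h) in 70.0% and in the Hth line (1 mM for 18 h) in 72.5%. Gcm regions without Ubx were bound in these lines in 6.95%, 5.88% and 7.45% of cases, and in 11.6% in the AbdB line. The AbdB line held 80.1% of those with Ubx. Longer lists also meet more regions, and the AbdB list has 13511. The Ubx+Hth+Gcm, Dfd+Gcm and Hth lists have 8365, 8886 and 8998. With 400 bp windows on the region centres the shares with Ubx were lower, at 74.1%, 62.1% and 58.3%, and 56.2% in the AbdB line. Those without Ubx were then 9.17%, 9.12% and 8.54%, and 8.35% in the AbdB line. The tagged protein in those lines was a Hox protein or Hth, not Gcm, so that a second line with tagged Gcm was not among them. Of all Gcm regions, 4581 met no region of the 10 other lines, and 278 of these were with Ubx (6.07%, interval 5.39 to 6.80). At the other end, 1676 were bound in all 10 lines, and 1673 of these were with Ubx (99.8%).

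The Gcm site grew rarer along the same axis. It was in 38.2% of Gcm regions bound in none of the 10 other lines, in 22.7% of those bound in 1 to 3, in 14.7% with 4 to 6, in 8.38% with 7 to 9 and in 4.53% of those bound in 10. Coding exons held the centre of 41.5% of the regions bound in none and 3.82% of those bound in 10. Gcm regions with Ubx that were not bound in the Ubx line stood between these ends. Of these, 63.4% were bound in the Ubx+Hth+Gcm line, 51.3% in the Dfd+Gcm line and 42.5% in the Dfd+Hth+Gcm line. In the lines without added Gcm the shares ranged widely. They were 57.3% in AbdB, 53.4% in AbdB+Hth, 42.6% in Hth, 37.2% in Dfd, 37.2% in Dfd+Hth and 12.9% in Ubx+Hth. The lists differ in size, from 4885 regions for Ubx+Hth to 13741 for AbdB+Hth, and the part of Gcm in these shares was not tested.

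The Ubx+Gcm regions with Gcm were bound in the AbdB line in 78.5% of cases and in the AbdB+Hth line in 75.4%, against 93.5% and 91.4% of the Ubx+Gcm regions without Gcm. With 400 bp windows the shares were 59.8% and 78.1% for the AbdB line, and 60.0% and 79.4% for the AbdB+Hth line. The Ubx line held 55.2% of those with Gcm and 47.3% of those without, and the Ubx+Hth+Gcm line 80.5% and 63.5%. With 400 bp windows these were 50.8% and 47.6%, and 75.5% and 62.1%. The AbdB line was induced with 0.5 mM CuSO4 for 24 h and the AbdB+Hth line with 2.5 mM for 24 h.

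Genes were assigned the regions within 2 kb of either end, for 99 genes in 9 lists of glial, hemocyte, JAK/STAT, Hox, Hox target and muscle genes. A region was counted for each gene within that distance, also where it lay over a neighbouring gene. A count for a gene is thus not always of regions in the gene. A Gcm region lay within 2 kb of 82 of these 99 genes, against 57.7% of 13945 protein-coding genes. Gcm regions with Ubx were found at 65 of the 99 (36.3% of all genes), Gcm regions without Ubx at 67 (38.8%) and Ubx+Gcm regions without Gcm at 52 (40.1%), while 59.3% of all genes had any Ubx+Gcm region. The listed genes are long, with a median of 11355 bp against 2166 bp for all protein-coding genes, and longer genes have more room for regions, so these counts are given as a description. At q 1e-10 Gcm regions with Ubx were found at 40 of the 99 genes, against 15.4% of all genes.

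Most of the Gcm regions at glial regulators were with Ubx, less clearly so at q 1e-10. Of 7 genes, 5 had a Gcm region and the same 5 had a Ubx+Gcm region. Of their 37 Gcm regions 27 were with Ubx (73.0%, against 47.9% of all Gcm regions), 14 of them at pnt. With both lists at q 1e-10, Gcm regions with Ubx were 5 of 10 at pnt, 3 of 4 at loco and 2 of 2 at ttk. They were 1 of 1 at gcm2 and 0 of 3 at repo. Of all Gcm regions 35.8% were then with Ubx. At repo, the homeobox gene needed for glial differentiation downstream of Gcm in the embryo (chr3R:18236192-18239602, plus strand), 3 Gcm regions lay before and over the start, all also in the q 1e-10 list. The farthest, chr3R:18233719-18234401, held 2 Gcm sites, was without Ubx and was bound in none of the 10 other lines. The nearer ones, chr3R:18234615-18235304 and chr3R:18235653-18236321, held no Gcm site and were with Ubx. Neither was bound in the Ubx line, and the one over the start was bound in none of the 10 other lines. All repo calls with Ubx were absent at q 1e-10, where the gene had 3 Gcm regions and no Ubx+Gcm region.

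loco, which encodes a regulator of G protein signalling expressed in glia (chr3R:22619968-22639387, minus strand), had 8 Gcm regions, 5 with Ubx and 3 without. Its widest, chr3R:22627013-22628608 in an intron, held 2 Gcm sites, was with Ubx and was bound in all 10 other lines, and it is the source of the loco stretch shown above. pnt, which encodes an ETS transcription factor, had 18 Gcm regions, 14 with Ubx, and 10 Ubx+Gcm regions without Gcm. ttk, a zinc finger repressor gene, had 6 Gcm regions, 5 of them with Ubx. At gcm2, the neighbour and paralog of gcm, 1 Gcm region was with Ubx and 1 without. A further 2 Ubx+Gcm regions, which lay in the neighbouring gene Trx2, had no Gcm region. gcm itself and tll had no region of either line. The coding exons of gcm are on both plasmids and regions over them had been removed, so nothing can be read from the coding part of that gene.

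Glial effector genes were less one-sided. Of 14, 11 had a Gcm region and 11 had a Ubx+Gcm region, and 12 of their 28 Gcm regions were with Ubx (42.9%). htl, the FGF receptor gene used by glia and mesoderm, had 4 Gcm regions, of which 3 were with Ubx. None of the 3 was bound in the Ubx line, and 1 of them was bound in the Dfd+Gcm line. Gli, the gene of the septate junction protein Gliotactin, had 2 Gcm regions with Ubx and 1 without, and moody, a receptor gene of the blood-brain barrier, 1 with and 2 without. Nrg and Nrx-IV had Gcm regions and Ubx+Gcm regions that did not meet, with 2 and 1 of each. wrapper, Eaat1 and Mdr65 had none.

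**Figure D5:**
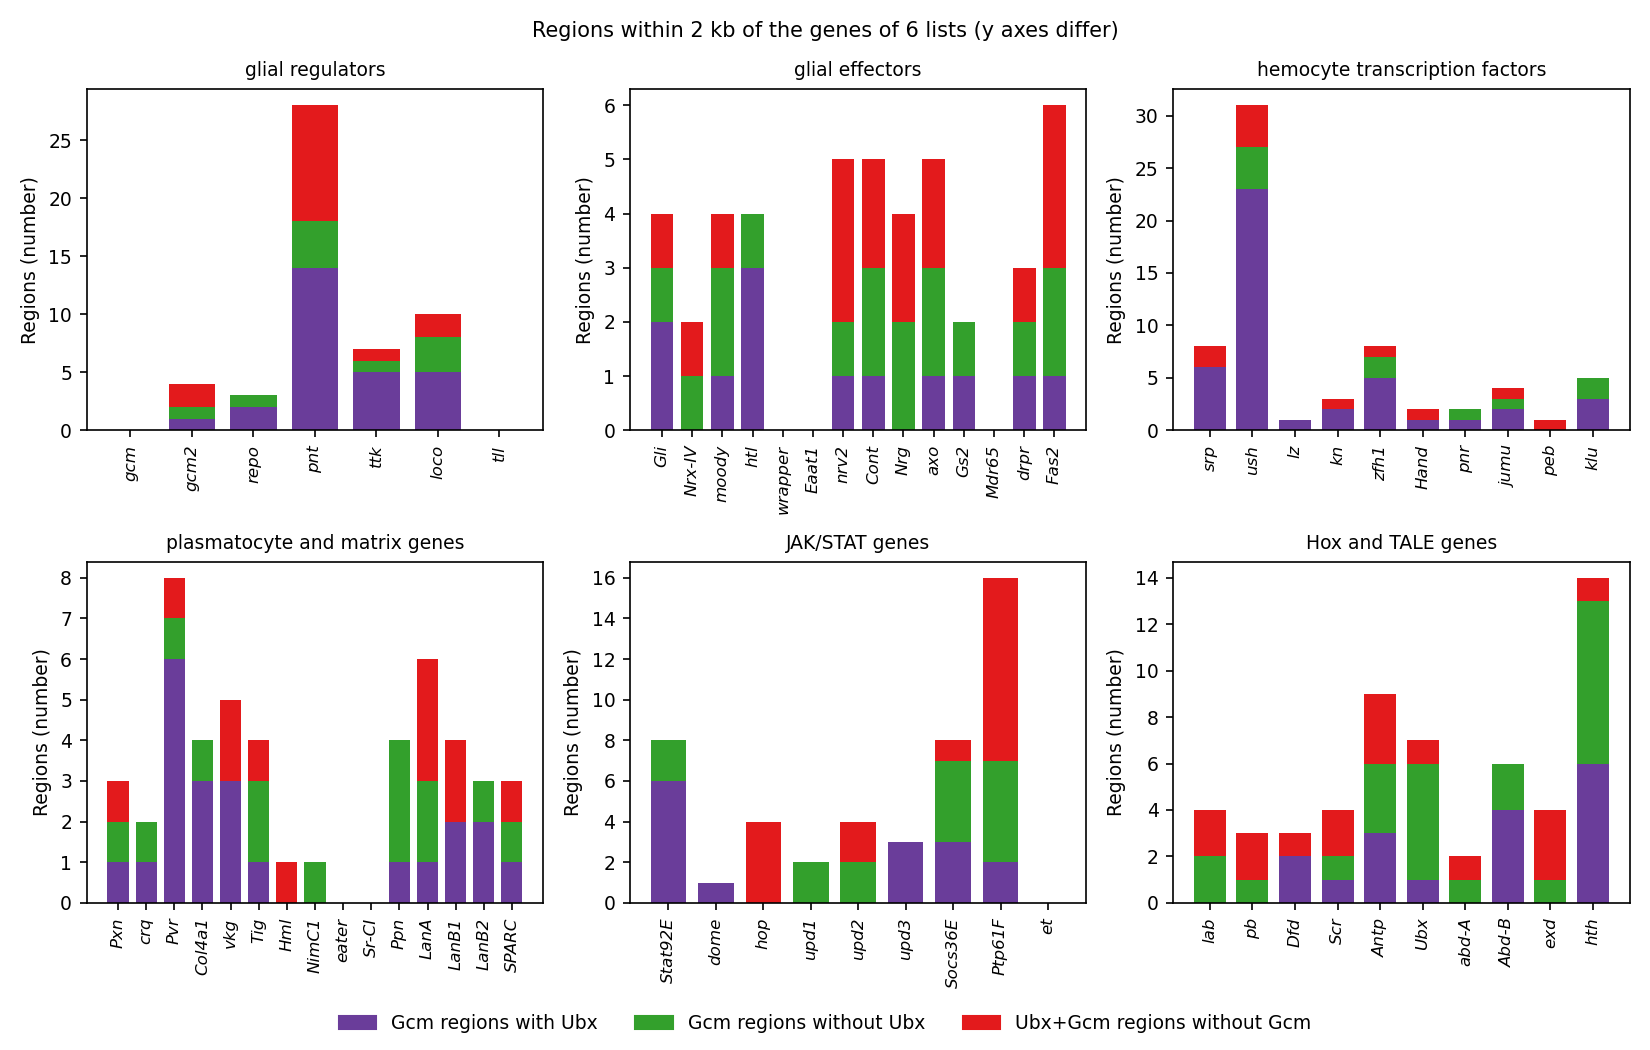
Stacked bars give the number of Gcm regions with Ubx, Gcm regions without Ubx and Ubx+Gcm regions without Gcm within 2 kb of each gene of 6 lists, with vertical axes that differ between panels. ush has 23 Gcm regions with Ubx and 4 without, repo has 2 and 1, and hop has 4 Ubx+Gcm regions and no Gcm region.

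Hemocyte transcription factor genes carried mostly shared regions, less clearly so at q 1e-10. Of 10 genes, 9 had a Gcm region and 10 a Ubx+Gcm region. Of their 54 Gcm regions 44 were with Ubx (81.5%, against 47.9% of all Gcm regions), 23 of them at ush. With both lists at q 1e-10, Gcm regions with Ubx were 13 of 24 at ush, 3 of 5 at srp, 2 of 6 at zfh1 and 2 of 3 at klu. They were 1 of 1 at Hand and at jumu, 0 of 2 at pnr and 0 of 1 at kn. Of all Gcm regions 35.8% were then with Ubx. ush, which encodes the GATA cofactor U-shaped, had 27 Gcm regions, 23 with Ubx and 4 without, and 27 Ubx+Gcm regions, 4 of them without Gcm. All 6 Gcm regions at srp, the GATA factor gene that sets up the hemocyte lineage, were with Ubx, and 5 of these 6 were bound in all 10 other lines. The exception, chr3R:15996617-15997822 in an intron, was bound in none of them. zfh1 had 5 Gcm regions with Ubx and 2 without, and klu 3 and 2. The crystal cell regulator gene lz had 1 Gcm region within 2 kb, with Ubx, which lay over the neighbouring gene c11.1. peb had 1 Ubx+Gcm region and no Gcm region.

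Among 15 plasmatocyte and matrix genes 12 had a Gcm region. Summed over the genes, 22 of 36 Gcm regions were with Ubx (61.1%), with regions near adjacent genes counted for each. Pvr, the gene of the receptor of PDGF- and VEGF-like ligands that hemocytes need for migration and survival, had 6 with Ubx and 1 without. The collagen IV genes Col4a1 and vkg had 3 with Ubx each, with 1 and 0 without. These genes are neighbours and share the regions chr2L:5027164-5027779 and chr2L:5029359-5029647, both with Ubx. Ppn, which encodes the matrix protein Papilin, had 1 with Ubx and 3 without. The plasmatocyte marker Hml had 1 Ubx+Gcm region, over the neighbouring gene Tsp68C, and no Gcm region. NimC1 had 1 Gcm region without Ubx, and eater and Sr-CI had none. Crystal cell and lamellocyte genes had 12 of 26 Gcm regions with Ubx (46.2%), 6 of them at msn.

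JAK/STAT genes, whose pathway drives lamellocyte formation in larval hemocytes, had 15 of 30 Gcm regions with Ubx (50%). This is near the 47.9% of all Gcm regions, and the counts for single genes are small. Among the ligand genes, upd3 had 3 Gcm regions, each with Ubx, upd2 had 2 without Ubx and 2 Ubx+Gcm regions elsewhere, and upd1 had 2 without Ubx and no Ubx+Gcm region. The receptor gene dome had 1 Gcm region, with Ubx, which lay in the neighbouring gene Ubqn. hop, the gene of the JAK kinase, had 4 Ubx+Gcm regions and no Gcm region. Those at chrX:11369370-11369842 and chrX:11369995-11370866 lay over the neighbouring gene dlg1. The transcription factor gene Stat92E had 6 with Ubx, none of which held a Gcm site, and 1 of these lay at the neighbouring genes MtnD and MtnE. It had 2 without, of which 1 lay over a coding exon. The other held 3 Gcm sites and lay over the neighbouring gene DPCoAC. The feedback inhibitor gene Socs36E had 3 and 4, and the phosphatase gene Ptp61F 2 and 5 beside 9 Ubx+Gcm regions without Gcm.

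The Hox and TALE genes had 17 of 40 Gcm regions with Ubx (42.5%), and each of the 10 genes had a region of both lines. hth, the cofactor gene, had 13 Gcm regions, 6 with Ubx and 7 without. Ubx had 6, of which 5 in introns were without Ubx and met no region of any other line, and 1 was with Ubx and was bound in all 10 other lines. The coding exons of Ubx are on the Ubx+Gcm plasmid and regions over them had been removed, so the counts at Ubx leave that part out. Abd-B had 4 with Ubx and 2 without. The 3 Ubx+Gcm regions at exd include the region over its coding sequence that is set aside below. Hox target genes had 25 of 38 Gcm regions with Ubx (65.8%), with 6 of 9 at ct and 3 of 4 at hh. Muscle genes had 6 of 14 Gcm regions with Ubx (42.9%), near the 47.9% of all Gcm regions. Of the 10 muscle genes, 4 had Gcm regions and no Ubx+Gcm region: Mhc, Tm2 and bt with 1 each and sls, the gene of a titin-like protein, with 3. The share of all protein-coding genes with Gcm regions and no Ubx+Gcm region was not computed, so this count is a description only. The region of Mhc was centred in an intron and those of the other genes in coding exons. The muscle transcription factor gene Mef2 differed from these 4 genes, with 4 Gcm regions that were all with Ubx, and twi had 2 with Ubx and 2 without.

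The widest regions of each class, taken from the q 1e-10 lists, repeated the differences in location. The widest Gcm regions with Ubx lay in introns of Tlk (2253 bp, chrX:3741934-3744186) and ph-p (2083 bp, chrX:2136607-2138689, with 6 GAGA matches), near Hacd1 (1952 bp), at E(spl)m3-HLH (1938 bp) and at Snx3 and Vha55 (1879 bp). Against the q 1e-10 lists, the regions at Tlk, ph-p, Hacd1 and E(spl)m3-HLH were bound in all 10 other lines and that at Snx3 in 9. The widest Gcm regions without Ubx were centred in coding exons of Stat92E (1556 bp, chr3R:20540092-20541647), Rgk2 (1263 bp), tara (1208 bp) and mtgo (1163 bp) and in the 5′ UTR at CG7142 and eIF1A (1120 bp). None of these 5 met a region of any other line in the q 1e-10 lists, and the one in mtgo was the only one with a Gcm site.

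The widest Ubx+Gcm regions without Gcm lay over 5′ UTRs of gpp (1824 bp) and gw (1758 bp), at exd (1703 bp), in MRP and Pih1D1 (1630 bp) and between cnk and l(2)k01209 (1621 bp). None held a Gcm site. The region at exd, the gene of the Hox cofactor Extradenticle, differed from the rest, since at q 1e-2 it ran over chrX:15993360-15995114 and covered 1128 of the 1128 coding bases of the gene. exd was among the coding sequences that the study cloned for other cells. Of the other genes cloned, gcm, hth and the 8 Hox genes had no coding base in a region of either line, and exd had none in a Gcm region. Whether plasmid DNA contributed to the exd region was not tested, and it is not taken here as a site of Ubx.

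Gcm regions with the most Gcm sites were found in both classes. With Ubx, 3 sites each were in regions at CG14785 (1400 bp), Eip63E (1395 bp) and l(3)mbn (624 bp), and 2 each in intergenic regions near corto (2374 bp) and CG11726 (2267 bp). Without Ubx, 3 sites each were in regions at CG11980 and Prosbeta3 (1530 bp), N (1243 bp), DPCoAC (1174 bp) and fs(1)h (980 bp), and 2 in the region at CG15717 and MFS10 (1655 bp). The region with Ubx at CG14785 was bound in 1 other line, Ubx+Hth+Gcm, and that at Eip63E in 8. Among those without Ubx, the regions at N and DPCoAC were bound in none of the 10 other lines and the others in 1 or 2, each of them AbdB or AbdB+Hth.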

How the data were processed

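The authors deposited region lists made from ChIP-Seq with an antibody to GFP. Per the labels and methods, uniquely placed reads were mapped by Bowtie 1.2.2 to the main chromosomes of dm6. The peak caller was MACS2 2.1.1.20160309, run on every ChIP library with its input at q 1e-2 and q 1e-10. Regions over exons carried by the plasmid were taken out, and overlapping peaks present in both replicates were merged into 1 region. The lists hold start and end positions, with no height, score, summit or replicate value used here, and the depth of the libraries is not in them.

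Overlaps were computed in Python 3.11.15 (numpy 2.4.6, scipy 1.17.1) and equalled those of bedtools 2.31.1 in 14 of 14 comparisons. Sequence came from the RefSeq Release 6 assembly and annotation from Ensembl release 115, both of the same assembly as dm6: no region ended beyond its chromosome arm. Motif and transcript start shares were compared by Fisher's exact test with Newcombe intervals, tested on simulated data, with Benjamini-Hochberg adjustment over the 6 motifs of a contrast. The HoxA and HoxB motifs overlapped one another in 38 of 19577 windows, and GATA motifs overlapped HoxA in 94, HoxB in 95 and GAGA in 32. Genes were named where they are members of the lists, and regions where they were the 5 widest of a class in the q 1e-10 lists, with the same class against either list of the other line, or the 5 with most Gcm sites. Members, motifs and gene lists were chosen with earlier results of these data known. Alternatives were the stricter lists, whole regions, strata of width, leaving out each arm, windows of 400 bp on the centres, and calling an overlap only from 50% of the shorter region.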

Additional observations from a re-analysis of the deposited data

How the results depend on the processing

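The share of Gcm regions with Ubx was 47.9%. It was 35.8% with both lists at q 1e-10, 58.6% with the Gcm list alone at q 1e-10, 27.3% with the Ubx+Gcm list alone at q 1e-10, 46.3% with an overlap of 50% of the shorter region and 40.9% with 400 bp windows. For the share of Ubx+Gcm regions with Gcm (54.4%) the values were 47.1% with both lists at q 1e-10, 68.2% with its own list alone at q 1e-10, 35.9% with the Gcm list alone at q 1e-10, 52.7% and 49.5%. Within the regions, the difference in the Gcm site of Gcm regions kept its direction and side of the threshold under each alternative run. So did the transcript start differences of both lines. Their sizes moved, and the start difference in Gcm regions was 14.5 points at q 1e-10. In the Gcm regions the HoxA difference was 1.03 points without arm 2L, 0.925 without 2R and 1.11 without 3L, none past the threshold. The DRE difference was 0.0302 points at q 1e-10. In the Ubx+Gcm regions the differences at q 1e-10 were -0.248 points for HoxA, 0.284 for GATA and -0.145 for GAGA. Over whole regions they were 6.07 points for HoxA, 3.12 for HoxB and 7.78 for GATA. Without arm 3R HoxA was -1.70 points and no longer passed, while GATA passed at -2.43 points, as it did within width quartiles at -2.16 points. The windows 1000 bp to either side serve as background. Beside Gcm regions the differences there were -0.346 points for the Gcm site, 0.627 for HoxA, 0.794 for HoxB and -0.0188 for the DRE. They were 3.69 points for GATA and 1.92 for GAGA, against 8.66 and 7.57 at the region centres. Beside Ubx+Gcm regions they were -0.0677 for the Gcm site, 2.01 for HoxA, 1.62 for HoxB, 1.42 for GATA, 0.661 for GAGA and 0.0843 for the DRE. Listed genes with Gcm regions with Ubx numbered 65, and 40 at q 1e-10. Of the alternatives to these results, 11 were counted as moved, 11 as reversed, 8 as weaker, 2 as stronger and 152 as unchanged. For a difference, unchanged meant the same direction and side of the threshold, and not the same size. The 152 include some of the windows 1000 bp to either side, where a like difference is background and gives a result no support. Counts of listed genes among the 152 moved too. Gcm regions without Ubx were at 67 listed genes within 2 kb and at 48 for the gene body alone. The cause of the changes was not tested. No paired analysis was possible because the lists merge both replicates of a line, and for the same reason no replicate could be left out.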
